A study of Saccharomyces cerevisiae with 12 samples.

Results

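The 10 genes described here encode the enzymes that make and break down glycogen in Saccharomyces cerevisiae, together with a regulatory subunit and both enzymes that supply the sugar donor. They were taken by systematic name from a table of 10891 features, which holds 5897 protein-coding genes, and all 10 were present. The table gives normalized read densities from ribosomal RNA-depleted, strand-specific libraries of 6 strains, with 2 biological replicates each, 12 libraries in all. The series asks how long noncoding RNAs that the exonuclease Xrn1 degrades respond to the loss of RNA helicases; glycogen genes were not its subject. All strains were BY4741 derivatives of mating type a carrying his3, leu2, met15 and ura3 mutations, grown in rich glucose medium (YPD) at 30°C and collected in mid-log phase. The deletion strains, each with kanMX4 in place of the named gene, were dhh1-delta, dbp1-delta, ski2-delta, slh1-delta and ecm32-delta, and WT carried none of them. The labels do not say how many clones were used.

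Glycogen is a branched glucose polymer that yeast stores when growth slows. Glycogenins prime a new chain, glycogen synthase extends it from UDP-glucose, and a branching enzyme adds side chains. Phosphorylase releases glucose 1-phosphate from chain ends, and the debranching enzyme removes the stubs that phosphorylase leaves. The pathway is controlled by phosphorylation, which inactivates the synthase and is reversed by the phosphatase Glc7, and by transcription through stress response elements. Dhh1 is a DEAD-box helicase that takes part in mRNA decapping and translational repression.

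Before any comparison, the deleted genes were read as a check of the labels. DHH1 had 73 and 77 reads in the dhh1-delta libraries, against 1976 and 3032 in WT. ECM32 had 3 and 2 reads in ecm32-delta, and SLH1 had 1 and 0 in slh1-delta. The other strains went against their labels. In the libraries labelled dbp1-delta SKI2 had 2 and 1 reads, while DBP1 had 170 and 125. In the libraries labelled ski2-delta DBP1 had 2 and 4 reads, while SKI2 had 1352 and 1742. These libraries keep their labels as names below, and no direction found in them is tied to the gene in the name. LEU2, MET15 and URA3 had at most 2 reads in any library, whereas HIS3 kept a density of 0.398 to 0.648. STE2, the receptor of mating type a cells, had a density of 3.44 to 4.85 in all libraries, and STE3, the receptor of the other mating type, 0.00523 to 0.0167. Spike-in RNA took 1.22% of reads in WT replicate 1 and 1.72 to 2.69% in the other libraries, so WT replicate 1 stood apart.

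The genes lie on 8 chromosomes, and none overlaps another annotated gene in build R64. The glycogenin genes are GLG1 (YKR058W, chrXI:552770-554620, plus strand) and GLG2 (YJL137C, chrX:154985-156127, minus). The glycogen synthase genes are GSY1 (YFR015C, chrVI:174265-176391, minus) and GSY2 (YLR258W, chrXII:660716-662833, plus). GLC3 (YEL011W, chrV:133120-135234, plus) encodes the branching enzyme, and GAC1 (YOR178C, chrXV:667860-670241, minus) the subunit that brings Glc7 to glycogen synthase. GPH1 (YPR160W, chrXVI:861306-864014, plus) encodes phosphorylase, and GDB1 (YPR184W, chrXVI:902044-906654, plus) the debranching enzyme. PGM2 (YMR105C, chrXIII:475897-477606, minus) encodes the major phosphoglucomutase, which interconverts glucose 6-phosphate and glucose 1-phosphate. UGP1 (YKL035W, chrXI:369891-371390, plus) encodes UDP-glucose pyrophosphorylase, an essential enzyme whose product also feeds cell wall glucan and trehalose. GSY1 and GSY2 are paralogs, as are GLG1 and GLG2. Neither synthase pair nor glycogenin pair shared a word of 25 bases in its coding sequences (0 shared), and PGM2 shared 0 with its paralog PGM1, so exact matches of that length would not move reads between them.

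The stress response element, bound by Msn2 and Msn4, has the core AGGGG, which the opposite strand reads as CCCCT. In the window from 250 bases before to 50 bases after the start codon, 5 of the 10 genes held a match on either strand, against 22.0% of 5896 coding genes. In the 500 bases before the start codon, a window chosen after the first had been seen, 8 of 10 held a match and 7 held 2 or more, against 34.5% and 8.23% of 5895 coding genes. PGM2 held 5 matches, UGP1 4, GLC3 3, GPH1, GSY1, GSY2 and GLG2 2 each, and GDB1 1. GLG1 and GAC1 held 0. All 4 UGP1 matches lie beyond the 169 bases between it and its upstream neighbour AIM26. Both GLG2 matches lie beyond the 41 bases between it and its upstream neighbour YJL136W-A. Windows were cut without regard to neighbouring genes, for these 10 and for all coding genes alike. The related core AGGGAT, searched on both strands and overlapping the first core in its first 4 letters, was found in 3 of 10 genes in the longer window, against 15.6% of coding genes. The stretches with the matches of 4 genes that rose strongly in dhh1-delta are shown, from RefSeq R64, on the strand of each gene and 5′ to 3′, with matches in capitals. They are chrXVI:860906-861005 (plus strand) for GPH1, chrXII:660316-660565 (plus) for GSY2, chrV:132720-132919 (plus) for GLC3 and chrXIII:477797-478036 (minus) for PGM2. A match is a run of letters and not a shown binding site.
GPH1: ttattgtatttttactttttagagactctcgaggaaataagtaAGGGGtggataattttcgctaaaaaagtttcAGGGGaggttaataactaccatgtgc
GSY2: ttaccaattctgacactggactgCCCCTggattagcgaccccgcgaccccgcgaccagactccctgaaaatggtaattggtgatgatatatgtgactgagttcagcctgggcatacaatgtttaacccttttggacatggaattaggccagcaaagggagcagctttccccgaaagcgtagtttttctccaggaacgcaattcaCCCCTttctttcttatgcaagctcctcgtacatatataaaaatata
GLC3: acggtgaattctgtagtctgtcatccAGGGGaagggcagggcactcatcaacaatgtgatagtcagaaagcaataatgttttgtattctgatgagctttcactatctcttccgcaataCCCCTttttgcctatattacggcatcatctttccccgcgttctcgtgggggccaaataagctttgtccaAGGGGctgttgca
PGM2: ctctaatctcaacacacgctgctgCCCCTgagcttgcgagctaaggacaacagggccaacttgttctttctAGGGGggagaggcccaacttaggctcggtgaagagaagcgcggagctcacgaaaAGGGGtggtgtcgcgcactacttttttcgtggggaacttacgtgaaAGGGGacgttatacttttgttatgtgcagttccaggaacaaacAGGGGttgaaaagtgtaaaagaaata
GLG2, which did not pass the test in dhh1-delta, also held matches, shown with 10 bases on each side, at chrX:156509-156533 and chrX:156220-156244 (minus strand).
GLG2 distal site: taaaaagaagAGGGGaagtcgttta
GLG2 proximal site: tataaagatgAGGGGagtagatcaa

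**Figure D1:**
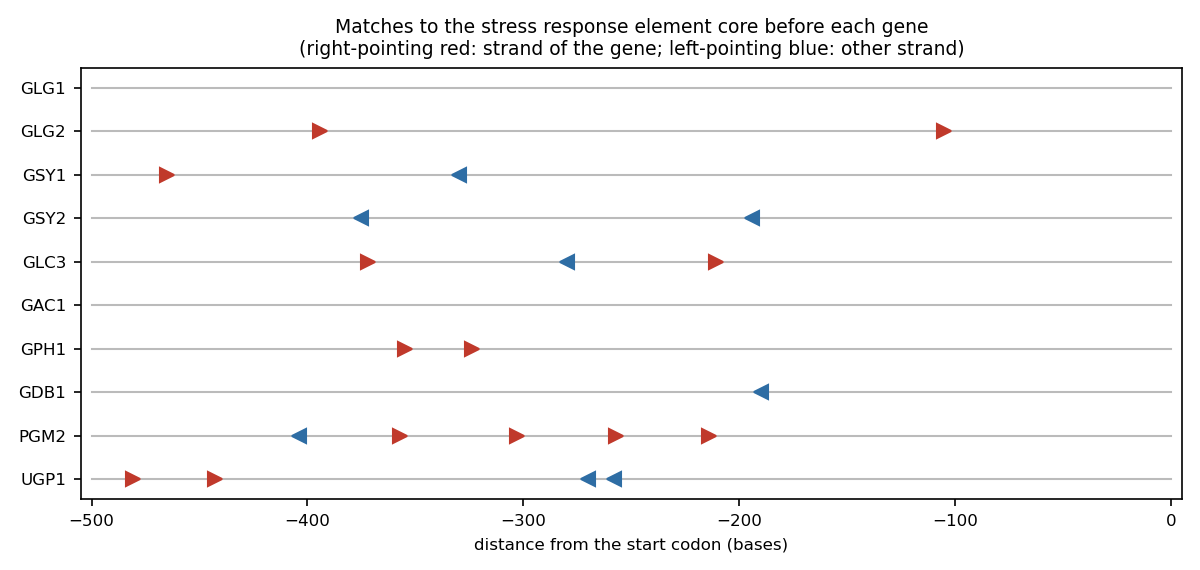
Matches to the stress response element core in the 500 bases before the start codon of each glycogen gene; the x axis is the distance from the start codon in bases, and each arrowhead is 1 match and points along the strand that reads it. GLG1 and GAC1 have no arrowhead, and PGM2 has 5.

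In WT, densities per nucleotide spanned a wide range among the 10 genes. UGP1 was far above the others at 2.31 ± 0.318 (SD, n = 2), higher than 91.6% of coding genes. GSY2 followed at 0.245 ± 0.0442, then PGM2 at 0.159 ± 0.0322 and GLG2 at 0.153 ± 0.0331, whose libraries overlapped. GPH1 (0.101 ± 0.0182), GSY1 (0.0914 ± 0.0245), GLC3 (0.0776 ± 0.00776), GLG1 (0.0714 ± 0.0134) and GDB1 (0.0698 ± 0.0102) formed a low group in which each gene overlapped its neighbour in the order. GAC1 was lowest at 0.00394 ± 0.00326, with 4 and 21 reads, above 4.07% of coding genes. All 10 genes had a lower density in WT replicate 1 than in WT replicate 2. The scaling factor from all coding genes was likewise lower, at 0.867 in WT replicate 1 and 0.971 in WT replicate 2.

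The order changed in dhh1-delta. UGP1 stayed highest at 4.16 ± 0.177 (SD, n = 2). GSY2 (1.32 ± 0.151) and GPH1 (1.19 ± 0.105) came next with overlapping libraries, then PGM2 (0.793 ± 0.0178), GLC3 (0.713 ± 0.0225) and GSY1 (0.525 ± 0.0196), with no overlap between neighbours. GDB1 (0.192 ± 0.0144) stood above GLG2 (0.169 ± 0.0130), and GLG1 (0.0700 ± 0.000626) above GAC1 (0.0566 ± 0.00803). GPH1 thus moved to 83.7% of coding genes below it, against 23.1% in WT, and GLC3 to 75.6%, against 18.4% in WT. Together the 10 genes took 0.201 and 0.188% of coding reads in dhh1-delta, 0.0539 to 0.0763% in the other deletion libraries, and 0.0586 and 0.0621% in WT.

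**Figure D2:**
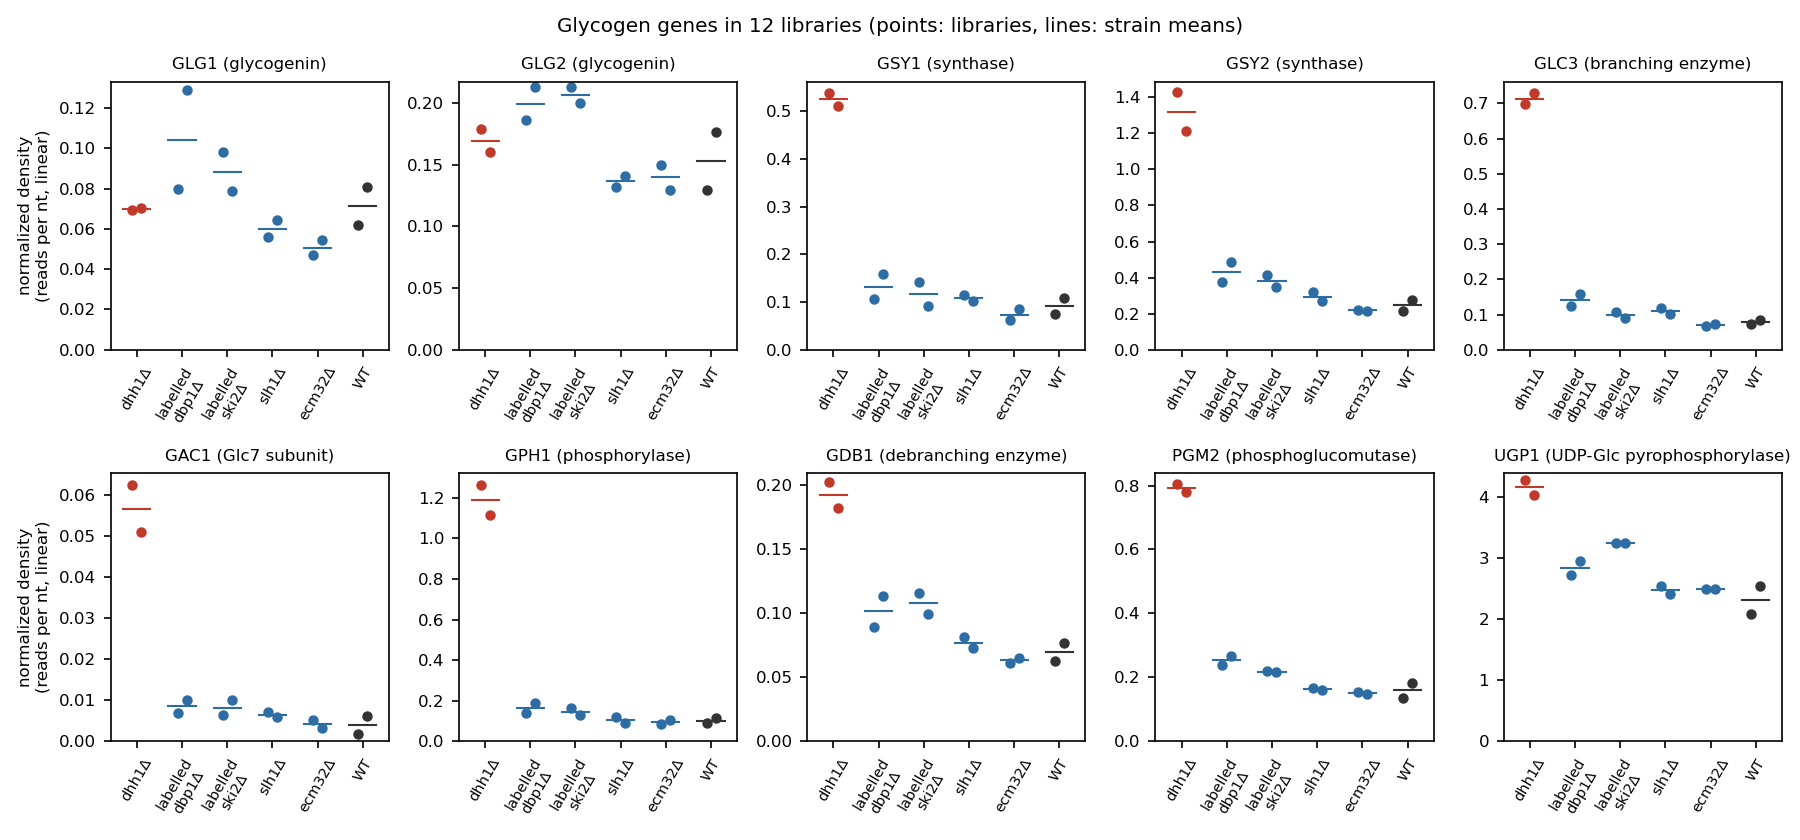
Normalized density (y axis, reads per nucleotide after library scaling, linear from 0) of each glycogen gene in 12 libraries of 6 strains; points are libraries and lines strain means. In 8 panels both dhh1-delta points lie above the other 10 libraries, and in the GLG1 and GLG2 panels they do not.

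In dhh1-delta, 8 of the 10 glycogen genes rose over WT and 0 fell, while the glycogenin genes GLG1 and GLG2 did not pass the test. The test was limma-trend with p-values adjusted over 9497 features, of which 13.7% were called higher. Of the 5631 coding genes among them, 1176 were called higher and 1224 lower. For the same 8 genes both dhh1-delta libraries lay above both WT libraries, as did 24.5% of all features tested. They also lay above all of the other 10 libraries, as did 8.43% of all features. The median log2 fold change of the 10 genes was 2.35, against -0.20 for all features tested. Since RNA came from whole cultures, more transcript per cell and more cells with the transcript cannot be told apart.

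Among the genes of chain synthesis, the glycogenins stood apart from the rest. GLG1 had densities of 0.0696 and 0.0705 in dhh1-delta, against 0.0619 and 0.0809 in WT. The groups overlapped, and the log2 fold change was -0.02 with a 95% interval of -0.50 to 0.47 (limma-trend, adjusted p = 0.964). GLG2 had 0.178 and 0.160 in dhh1-delta, against 0.129 and 0.176 in WT, again overlapping. Its log2 fold change was 0.16, with an interval of -0.19 to 0.50 (limma-trend, adjusted p = 0.452). A change as large as that of the synthases lies outside both intervals.

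GSY2, the synthase with the higher density in every library, had 1.43 and 1.21 in dhh1-delta, against 0.214 and 0.276 in WT. Its log2 fold change was 2.41 (standard error 0.17, 5.32-fold, limma-trend adjusted p = 1.45e-06). GSY1 had 0.539 and 0.511 in dhh1-delta, against 0.0741 and 0.109 in WT. Its rise of 2.48 (standard error 0.25, 5.58-fold, limma-trend adjusted p = 2.60e-05) was close to that of GSY2. Within a library the ratio of GSY1 to GSY2 was 0.378 and 0.421 in dhh1-delta and 0.346 and 0.393 in WT, so the balance of the isoforms overlapped between the strains. GLC3, the branching enzyme, had 0.698 and 0.729 in dhh1-delta, against 0.0721 and 0.0831 in WT. It rose by 3.12 (standard error 0.16, 8.71-fold, limma-trend adjusted p = 2.06e-07), and its ratio to GSY2 was 0.489 and 0.601 in dhh1-delta, above the 0.257 to 0.373 of the other 10 libraries.

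GAC1, which encodes the activating phosphatase subunit, had 0.0623 and 0.0509 in dhh1-delta (254 and 204 reads), against 0.00164 and 0.00624 in WT (4 and 21 reads). Its log2 fold change was 2.82 (standard error 0.30, limma-trend adjusted p = 3.68e-05). Because its WT density was near the pseudocount, this value understates the change: the ratio of mean densities was 14.4, against 7.04 from the fit. The log2 fold change ran from 0.97, with 10 times the pseudocount, to 3.93, with limma-voom on recovered reads.

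The breakdown enzymes both rose, by different amounts. GPH1 had 1.26 and 1.11 in dhh1-delta, against 0.0884 and 0.114 in WT. Its rise of 3.50 (standard error 0.20, 11.3-fold, limma-trend adjusted p = 3.77e-07) was the largest among the 10 at this pseudocount and ranked 10 of 5631 coding genes tested. With the pseudocount divided by 10, and with limma-voom, GAC1 was higher, at 3.90 and 3.93, against 3.56 and 3.55 for GPH1. GDB1, which acts after phosphorylase, had 0.202 and 0.182 in dhh1-delta, against 0.0626 and 0.0771 in WT. It rose by 1.40 (standard error 0.17, 2.64-fold, limma-trend adjusted p = 8.50e-05), rank 144. The ratio of GDB1 to GPH1 was 0.160 and 0.163 in dhh1-delta, against 0.708 and 0.675 in WT, and 0.598 to 0.792 over the other 10 libraries. The ratio of GPH1 to GSY2, phosphorylase to the main synthase, was 0.886 and 0.919 in dhh1-delta, against 0.413 in both WT libraries. These ratios are free of the scaling between libraries and were not tested.

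Of the enzymes that supply UDP-glucose, PGM2 had 0.806 and 0.781 in dhh1-delta, against 0.137 and 0.182 in WT. It rose by 2.29 (standard error 0.14, 4.90-fold, limma-trend adjusted p = 4.78e-07). Its paralog PGM1, the minor isozyme by activity, had 1.18 and 1.17 in dhh1-delta, against 1.06 and 1.39 in WT, and did not pass (log2 fold change -0.06, limma-trend adjusted p = 0.748). The ratio of PGM2 to PGM1 was thus 0.686 and 0.669 in dhh1-delta, against 0.128 and 0.131 in WT. UGP1 had 4.28 and 4.03 in dhh1-delta, against 2.09 and 2.54 in WT. Its rise of 0.85 (standard error 0.11, 1.80-fold, limma-trend adjusted p = 1.25e-04) was the smallest of the 8. With spike-in factors it did not pass (0.63, standard error 0.36, limma-trend adjusted p = 0.225). With spike-in factors and no WT replicate 1 the UGP1 rise was 1.12.

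A comparison whose fold changes use no WT library was made as well, with the spread still estimated from all 12 libraries. Against the mean of the other 4 deletion strains, 8 of 10 glycogen genes were higher in dhh1-delta by limma-trend and 0 lower, where 11.0% of all features were called higher. Of the 9497 features 4340 were called lower, and their median log2 fold change as deposited was -0.36 over all 9497. Of coding genes alone, 945 of 5631 tested were called higher and 2481 lower. GPH1 stood 3.21 higher on the log2 scale (standard error 0.16, limma-trend adjusted p = 8.87e-08), GLC3 2.75, GAC1 2.39, GSY1 2.28, GSY2 2.02, PGM2 2.02, GDB1 1.13 and UGP1 0.60. GLG1 (-0.04, interval -0.43 to 0.34) and GLG2 (0.02, interval -0.26 to 0.29) did not pass. With factors from coding genes GLG2 did, at 0.24 (limma-trend adjusted p = 0.0464). Both comparisons share the dhh1-delta libraries.

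**Figure D3:**
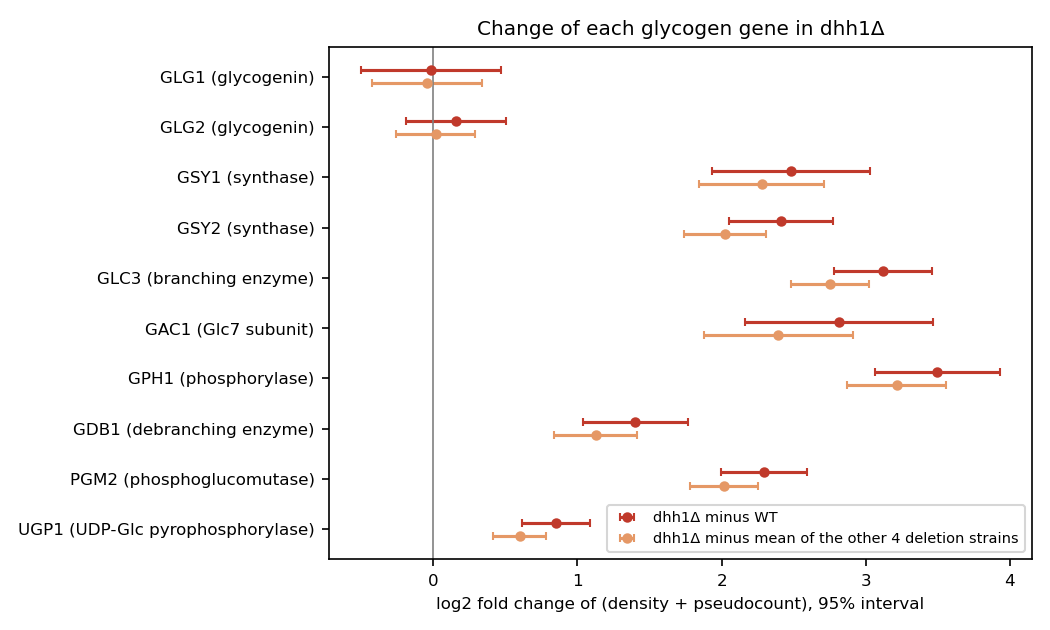
Log2 fold change (x axis) of each glycogen gene in dhh1-delta over WT (dark) and over the mean of the other 4 deletion strains (light), with 95% intervals from limma-trend. The intervals of GLG1 and GLG2 hold 0, and those of the other 8 genes lie above it, from UGP1 at 0.85 to GPH1 at 3.50 over WT.

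**Figure D4:**
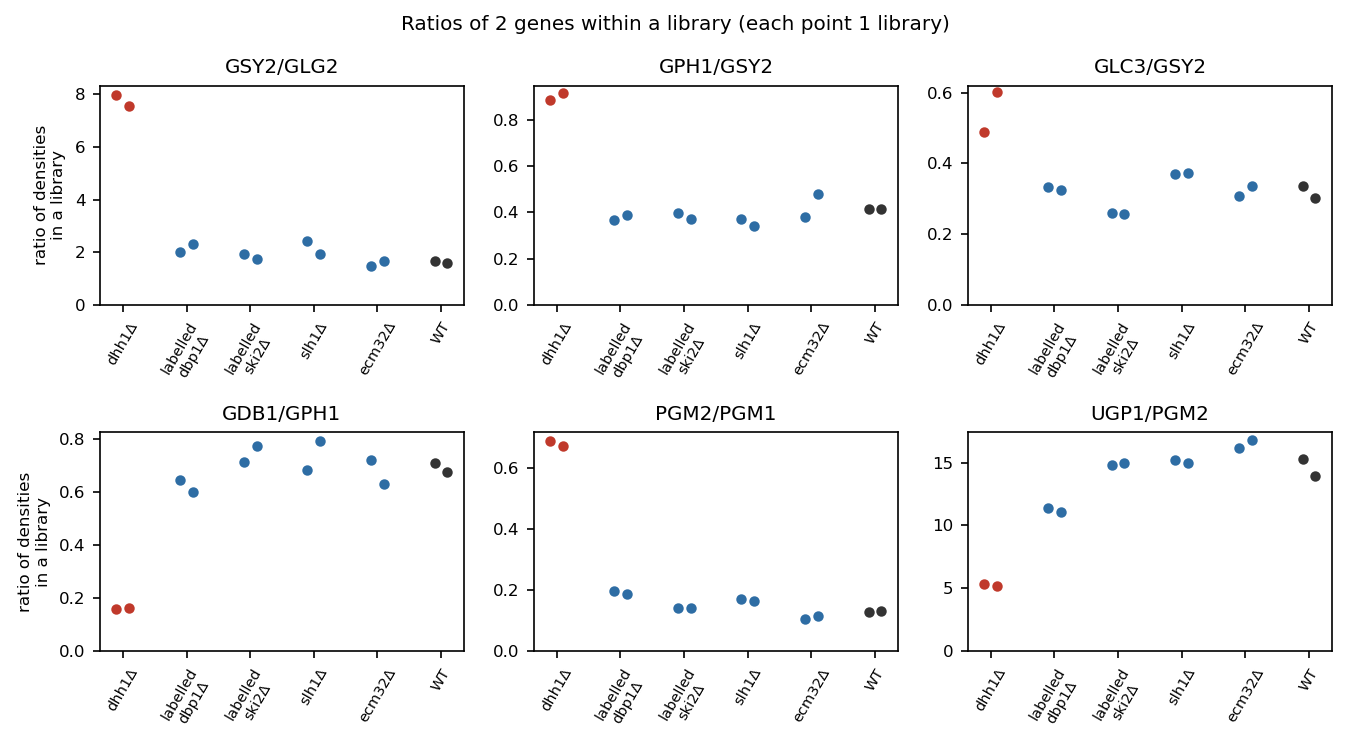
Ratios of densities of gene pairs within each library (y axis, linear from 0; points are libraries, by strain). The 6 ratios drawn were chosen from 10 with their values known; the dhh1-delta points stand apart in these, while GSY1 over GSY2 and GLG1 over GLG2, not drawn, overlapped the other libraries. They lie, for example, at 7.58 or more for GSY2 over GLG2, against 1.65 and 1.57 in WT.

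The strain labelled dbp1-delta had 2 and 1 SKI2 reads. There, 4 of the 10 genes rose over WT as deposited and 0 fell, where 17.2% of all features were called higher. Of coding genes alone, 1394 of 5631 tested were called higher. GSY2 had 0.376 and 0.487, against 0.214 and 0.276 in WT (log2 fold change 0.80, standard error 0.17, limma-trend adjusted p = 0.0193). GLC3 had 0.125 and 0.157, against 0.0721 and 0.0831 in WT (0.82, standard error 0.16, limma-trend adjusted p = 0.0176). PGM2 (0.66) and GPH1 (0.66) passed as well. For 8 genes both labelled libraries lay above both WT libraries, as did 62.1% of all features. The median of the 10 genes was 0.57, against 0.33 for all features. With factors from coding genes 0 of 10 passed, and the medians were 0.25 and 0.01. Without WT replicate 1, and without the second labelled library, 0 passed as well, against 8 without WT replicate 2. The ratio of PGM2 to PGM1, which needs no scaling, was 0.196 and 0.187 in these libraries, against 0.128 and 0.131 in WT, and that of UGP1 to PGM2 was 11.4 and 11.1, against 15.3 and 13.9 in WT. Neither ratio overlapped that of WT, and neither was tested. Both were chosen from 10 ratios with their values known. The ratio of PGM2 to PGM1 did not overlap WT in the other deletion strains either. It was 0.171 and 0.163 in slh1-delta, 0.142 in both libraries labelled ski2-delta, and lower than WT in ecm32-delta (0.107 and 0.114). The ratio of UGP1 to PGM2 was above WT in ecm32-delta, at 16.2 and 16.8.

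The strain labelled ski2-delta had 2 and 4 DBP1 reads. There, 5 of 10 rose over WT as deposited and 0 fell, where 39.3% of all features were called higher. Of coding genes alone, 3380 of 5631 tested were called higher, a larger share than 5 of 10. UGP1 had 3.25 and 3.24, against 2.09 and 2.54 in WT (log2 fold change 0.50, standard error 0.11, limma-trend adjusted p = 0.0110). GSY2 (0.63), GDB1 (0.59), PGM2 (0.45) and GLG2 (0.44) passed too. For 8 genes both labelled libraries were above both WT libraries, as for 66.9% of all features. The median of the 10 genes was 0.47, against 0.39 for all features, so they moved about as all features did. With factors from coding genes 0 of 10 passed (median 0.05), and with spike-in factors the 5 called genes were below 0. Without WT replicate 1, or without the second labelled library, 0 passed, and without the first labelled library 1.

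In slh1-delta 0 of the 10 genes passed by limma-trend, where 0.0105% of all features were called in either direction. That share is 1 feature, the deleted gene SLH1 itself, so 0 of 10 does not set these genes apart. Log2 fold changes lay between -0.22 and 0.47, with adjusted p of 0.603 or more and 1 gene at an unadjusted p under 0.05. That gene was GLC3, named after its values were seen, with 0.118 and 0.101 in slh1-delta, against 0.0721 and 0.0831 in WT. In ecm32-delta 0 of 10 passed as well, where 0.0737% of all features were called, the deleted gene ECM32 included. Log2 fold changes lay between -0.45 and 0.11, with adjusted p of 0.591 or more and 0 genes at an unadjusted p under 0.05. Under limma-voom 0 passed in either strain. GLG1 had 0.0470 and 0.0545 in ecm32-delta, against 0.0619 and 0.0809 in WT, the only 1 of the 10 whose libraries all lay below those of WT, as did those of 12.5% of all features.

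**Figure D5:**
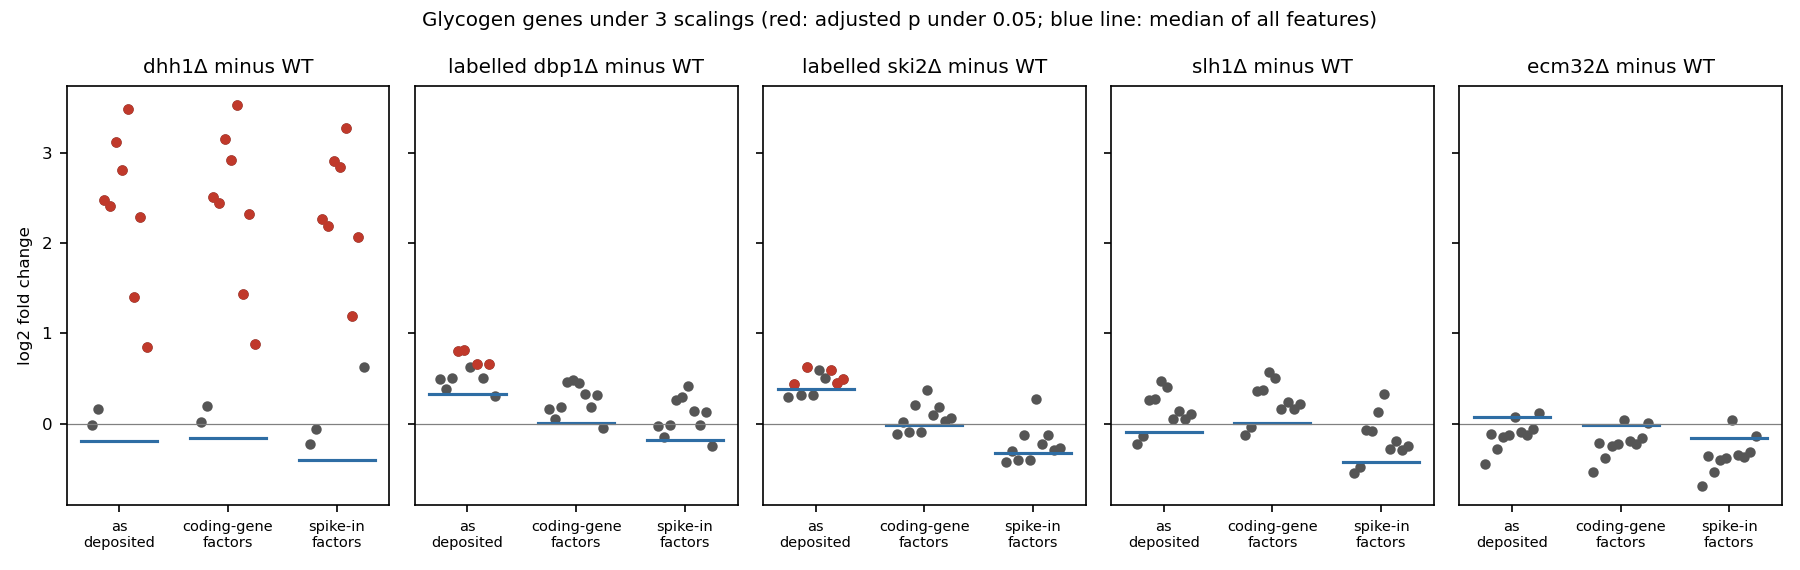
Log2 fold change over WT (y axis) of the 10 glycogen genes in the 5 deletion strains under 3 scalings, in the order GLG1, GLG2, GSY1, GSY2, GLC3, GAC1, GPH1, GDB1, PGM2, UGP1 from left to right in each column; red points passed limma-trend and blue lines are medians of all features. Of the dhh1-delta points 8, 8 and 7 are red, whereas red points in the libraries labelled dbp1-delta (4) and ski2-delta (5) occur as deposited only.

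Of 18 other glycogen genes, most of them regulators, 6 rose and 4 fell in dhh1-delta, where 13.7% of all features were called higher and 24.3% lower, so the falls were near the share over all features. Of coding genes alone, 1176 of 5631 tested were called higher and 1224 lower. With spike-in factors 4 of the 18 were called higher and 0 lower over the mean of the other 4 deletion strains. Over WT, spike-in factors gave 1 higher and 1 lower. As deposited the list had a median log2 fold change of 0.06, against 2.35 for the 10 genes above. PHO85, a cyclin-dependent kinase that phosphorylates glycogen synthase, rose by 0.90 (standard error 0.12, limma-trend adjusted p = 1.98e-04), with 0.594 and 0.668 in dhh1-delta, against 0.323 and 0.346 in WT. The cyclins that direct Pho85 to glycogen synthase moved apart: PCL8 rose by 0.74, and PCL10 fell by 0.93. PCL10 had 0.0807 and 0.0718 in dhh1-delta, against 0.148 and 0.150 in WT. PCL7 rose by 1.44 and PCL6 by 0.72, cyclins that pair with Pho85 as well, and GLC8, a Glc7 regulator, by 0.50. Of the PAS kinases, which act on Ugp1 and glycogen synthase, PSK1 rose by 0.90 and PSK2 fell by 0.50. As deposited, PHO85 in dhh1-delta overlapped the libraries labelled ski2-delta (0.567 and 0.604). GLC8 overlapped both labelled strains and slh1-delta. The other genes of the list that rose lay above all of the other libraries. REG1, the Glc7 subunit of glucose repression, fell by 0.44, and the phosphoglucomutase gene PGM3 (PRM15 in RefSeq) by 0.38. GLC7 itself (-0.06), SNF1 (0.06), SNF4 (0.05), PIG1 (-0.40), PIG2 (0.06), GIP2 (0.23) and the sporulation glucoamylase SGA1 (0.06) did not pass. Among the same 18 genes 2 rose in the libraries labelled dbp1-delta, 9 in those labelled ski2-delta and 0 in slh1-delta and ecm32-delta, and 0 fell in any of these. Of 5631 coding genes tested, 1394 and 3380 were called higher in the labelled strains. Over all features 17.2% and 39.3% were called higher in the labelled strains, and with protein-coding factors, with spike-in factors or without WT replicate 1, 0 of the 18 passed in either.

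Trehalose, the other storage carbohydrate, is made from the same UDP-glucose. Of 7 trehalose genes, 5 rose and 0 fell in dhh1-delta, where 13.7% of all features were called higher, with a median log2 fold change of 0.69. Of coding genes alone, 1176 of 5631 tested were called higher. With spike-in factors 3 of the 7 were called higher and 0 lower over the mean of the other 4 deletion strains. Over WT, spike-in factors gave 1 higher and 0 lower. TSL1, a regulatory subunit of trehalose synthase, rose by 2.38 (standard error 0.22, limma-trend adjusted p = 1.33e-05), with 1.35 and 1.19 in dhh1-delta, against 0.227 and 0.254 in WT. TPS2, the trehalose 6-phosphate phosphatase, rose by 1.18, the trehalase NTH1 by 0.81, TPS3 by 0.69 and the synthase TPS1 by 0.68. TPS1 had 1.81 and 1.64 in dhh1-delta, overlapping the 1.34 and 1.79 of the libraries labelled dbp1-delta. TSL1, TPS2, NTH1 and TPS3 overlapped no other library. NTH2 (0.34) and ATH1 (0.32) did not pass. As deposited, 3 of the 7 also rose in the libraries labelled dbp1-delta and 4 in those labelled ski2-delta. There 17.2% and 39.3% of all features were called higher, and 1394 and 3380 of the 5631 coding genes tested. With protein-coding or spike-in factors 0 of the 7 passed in either labelled strain. In slh1-delta and ecm32-delta 0 passed as deposited. The ratio of TPS1 to GSY2 was 1.27 and 1.35 in dhh1-delta, against 4.51 and 4.30 in WT. The difference between the lists was not tested.

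Densities of the glycogen genes also varied together outside dhh1-delta, but other gene pairs were not read for comparison. In the libraries labelled dbp1-delta and ski2-delta, 62.1% and 66.9% of all features lay above both WT libraries as deposited. Whether the glycogen genes varied together more than other genes was not tested. Over the 10 other libraries Pearson's r between pairs of the 10 genes ran from 0.49 (GLC3 with UGP1) to 0.96 (GSY2 with GDB1), as a description over libraries that share strains and scaling. Over all 12 libraries GLG1 correlated at 0.15 to 0.43 with the 8 genes that rose and at 0.84 with GLG2. The coding genes whose log2 densities were most like the mean standardized profile of the 10 genes, over 12 libraries, were COX15, a heme A synthase (r = 0.992), AGP2, a plasma membrane permease (0.991), LEU4, an isopropylmalate synthase (0.990), PNC1, a nicotinamidase (0.989), and the PAS kinase gene PSK1 (0.987). Their log2 fold changes in dhh1-delta over WT were 0.79, 1.39, 0.73, 1.23 and 0.90.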

How the data were processed

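Strand-specific RNA-seq libraries of 6 yeast strains, 2 per strain, were used. The authors deposited signal values, which are normalized read densities per feature. Tools listed in the submitters' processing notes, with no role or order, are HISAT2 2.2.0, featureCounts 2.0.0, DESeq2 and Trim Galore, and the build is R64. Whole reads were recovered for 100% of the 124137 values above 0 by searching for the value of 1 read in each library and for the shortest length of each feature that made its values whole to within 1e-05 reads (in proportion above 1000 reads). That length was free in the search and equalled the annotated one in 774 of 5919 features. The deposited signal is therefore reads per nucleotide divided by a library factor, and that factor follows the small nucleolar RNAs to within 1.85%. Depth was 8792919 to 17657085 reads per library. Intervals cover the model's error only.

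Comparisons used limma-trend (limma 3.58.1, R 4.3.3) on log2 of density plus a pseudocount of 0.005076, the 10th percentile of values above 0. The 9497 features with a mean density above it, spike-ins left out, entered 1 model of the 12 libraries, whose residual degrees of freedom were 6 and whose prior added 5.75. Benjamini-Hochberg adjustment ran over all of them for each comparison, with a threshold of 0.05. Fold changes are on the log2(density + pseudocount) scale and understate changes of low genes. The labels call the replicates biological and give no further source, so p-values measure the spread between these libraries. With 2 libraries against 2, they rest on the model.

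All 10 glycogen genes are named by rule. Other genes are named from lists of glycogen regulators, trehalose genes and protein kinase A regulators, those that did not pass in dhh1-delta with their values only, together with the 5 coding genes most like the glycogen genes. The lists are given without 1 gene, which is not reported here. Members and lists were chosen with earlier results of these data known. Sequences and coordinates come from RefSeq R64. Alternatives covered pseudocount, filter, scaling, each library left out, a replicate block and limma-voom on recovered reads.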

Additional observations from a re-analysis of the deposited data

How the results depend on the processing

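In dhh1-delta, 8 genes passed under every alternative but spike-in factors, where UGP1 did not pass and 7 did, and against the other deletion strains 8 or 9 passed. Leaving out a library gave 8 to 8 calls in dhh1-delta over WT and over the other strains, 0 to 8 in the libraries labelled dbp1-delta, 0 to 7 in those labelled ski2-delta, and 0 in slh1-delta and ecm32-delta. Protein-coding factors, spike-in factors, and either of these without WT replicate 1 (added after seeing the data) each gave 0 calls in both labelled strains, against 4 and 5 as deposited. Values changed sign only for uncalled or labelled-strain results. In dhh1-delta over WT, GLG1 turned to 0.0178 with protein-coding factors, 0.16 without WT replicate 2 (-0.19 to 0.16 over single libraries left out) and 0.19 with spike-in factors and no WT replicate 1, and GLG2 to -0.0601 with spike-in factors and -0.0582 without WT replicate 1 (-0.0582 to 0.37). Over the other strains GLG1 turned to 0.17 and 0.20 with protein-coding and spike-in factors and 0.0388 without the second library labelled dbp1-delta; GLG2 turned to -0.0101 without ecm32 replicate 2, -0.00802 without the first library labelled dbp1-delta and -0.0607 without dhh1 replicate 1 (-0.0607 to 0.0912). In the libraries labelled ski2-delta, spike-in factors gave -0.13 for GSY2, -0.13 for GDB1, -0.31 for GLG2, -0.29 for PGM2 and -0.27 for UGP1, and protein-coding factors without WT replicate 1 gave -0.12 for GLG2 and -0.0901 for PGM2. The cause was not tested.

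With a replicate block the calls were 8 in dhh1-delta over WT, 4 in the libraries labelled dbp1-delta and 4 in those labelled ski2-delta. Replicate numbers did not pair the samples: over 15 pairs of strains the correlation of replicate differences ran from -0.08 to 0.07. All features called higher in dhh1-delta over WT numbered 1297 as deposited, 1740 with protein-coding factors and 287 with spike-in factors. The spike-in factors of the WT libraries were 0.506 and 1.21, further apart than those of any other strain. In the libraries labelled dbp1-delta these were 1634, 28 and 31, and in those labelled ski2-delta 3732, 27 and 16. With spike-in factors calls in dhh1-delta over WT fell to 1 higher and 1 lower among the 18 other glycogen genes, 1 among the trehalose genes and 0 among the kinase regulators. Fold changes over the other 4 deletion strains use no WT library. There spike-in factors gave 4, 3 and 0 higher in these lists. Over all features they gave 619 higher there, against 1045 as deposited. GAC1, with 4 reads in WT replicate 1, is the gene whose level depth limits most.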

Other observations

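Genes of the cyclic AMP and protein kinase A pathway, which holds storage carbohydrate genes low during growth on glucose, and of the stress transcription factors were also read in dhh1-delta. Of 13 such genes 4 rose over WT and 1 fell by limma-trend, with a median log2 fold change of 0.11, where 13.7% of all features were called higher and 24.3% lower. Of coding genes alone, 1176 of 5631 tested were called higher and 1224 lower. With spike-in factors 0 of the 13 passed in either direction, over WT or over the mean of the other 4 deletion strains. MSN4, which encodes an activator that binds stress response elements, rose by 0.87 (limma-trend adjusted p = 0.00127), with densities of 0.256 and 0.247 in dhh1-delta, against 0.129 and 0.143 in WT. BCY1, the inhibitory subunit of protein kinase A, rose by 0.84, the low-affinity cyclic AMP phosphodiesterase gene PDE1 by 0.76 and GIS1 by 0.60. TPK3, a catalytic subunit, fell by 0.64. MSN2 (-0.11), TPK2 (0.33), RAS2 (0.07), CYR1 (-0.19), RIM15 (-0.32), IRA1 (0.11), IRA2 (0.27) and PDE2 (-0.16) did not pass. BCY1 had 0.362 and 0.580 in WT, against 0.838 and 0.816 in dhh1-delta. As deposited, 5 of the 13 also rose in the libraries labelled dbp1-delta and 12 in those labelled ski2-delta. There 17.2% and 39.3% of all features were called higher, and BCY1 rose by 0.65 and 0.92. Of 5631 coding genes tested, 1394 and 3380 were called higher there. With protein-coding or spike-in factors 0 of the 13 passed in either labelled strain. In slh1-delta and ecm32-delta 0 passed as deposited.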
